A study of Mus musculus with 21 samples.

Results

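Foxf1, Fendrr, Tbx2, Tbx3, Tlx2, Msx1 and Msx2 are regulators expressed in lateral plate and extraembryonic mesoderm. They were chosen by symbol from the 55487 gene IDs of the deposited count files, with earlier results of these data known. Shares over all genes given below are therefore background, not a test of the group. All 7 passed the filter on low counts in both fits, of 17690 and 16288 genes tested. The libraries are total RNA of differentiating mouse embryonic stem cells: embryoid bodies were taken apart on day 4 and sorted on the surface receptors PDGFRalpha and FLK1. DP cells carried both receptors, and SP cells carried FLK1 without PDGFRalpha. The reporter line TGET (T-GFP; Etv2-tdTomato) gave 4 groups, DP and SP cells each sorted as Etv2-tdTomato negative or positive. The other 9 libraries, called the second set, came from A2lox.Cre cells (wildtype, WT; DP and SP) and from SP cells of iEtv2, a doxycycline-inducible Etv2 line that received 2 µg per ml of doxycycline from day 2.5. WT and iEtv2 cells differ in both line and doxycycline, and untreated iEtv2 cells are not analysed here, so the effects of the induced gene, the line and the drug cannot be told apart. Every group had 3 libraries, 21 in all. All lines were kept on irradiated mouse fibroblast feeders and then moved to gelatin before differentiation. The labels do not say that replicates were separate cultures, so p-values measure the spread between these samples, which may be technical.

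Lateral plate mesoderm forms the heart, the vessels, the blood and the wall of the gut, and it is specified under bone morphogenetic protein (BMP) signals. Foxf1 is a forkhead transcription factor of the splanchnic layer, allantois and yolk sac mesoderm that is needed for vessel formation, and Fendrr is a long noncoding RNA transcribed divergently from its promoter. Tbx2 and Tbx3 are T-box repressors, Msx1 and Msx2 are homeobox repressors and well known BMP targets, and Tlx2 is a homeobox gene that responds to BMP in early mesoderm. Etv2 is an ETS factor required for endothelium and blood.

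Library totals ran from 22406153 to 32777143 counts assigned to genes. Pseudogenes held 12.2 to 14.4% of reporter-line counts but 0.549 to 0.636% of those of the second set. The reason is not given in the sources used here, so levels are compared within a set. Ribosomal RNA took 1.40% of counts in SP Etv2-negative replicate 2 and 1.28% in SP Etv2-positive replicate 3, and 0.432% or less elsewhere in the reporter line. Etv2 itself followed the sort, at 20.3 ± 2.65 and 58.2 ± 10.1 CPM in DP Etv2-negative and positive cells and 26.7 ± 0.841 and 88.4 ± 16.5 in the SP counterparts. It stood at 93.1 ± 23.0 CPM in WT SP and 240.4 ± 10.8 in iEtv2 SP. Mean Pdgfra, which the gates select on, was 254 and 149 CPM in DP and 51.8 and 37.2 CPM in SP cells of the reporter line. CPM are counts scaled to the TMM-adjusted library size, values after ± are standard deviations for CPM and standard errors for log2 fold changes, and n = 3 libraries per group throughout.

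Foxf1 (ENSMUSG00000042812) lies on mm10 chromosome 8 from 121084386 to 121088144 on the plus strand, and Fendrr (ENSMUSG00000097336) on the same chromosome from 121054882 to 121083110 on the minus strand. Their starts are 1276 bases apart and point away from each other. The 250 bases upstream of the Fendrr start (chr8:121083111-121083360, minus strand, RefSeq, GRCm38.p6), which lie between both starts, are shown because Foxf1 and Fendrr moved together below. Capitals mark the matches of an ETS core (GGAAGT) and of a forkhead motif (TGTTTAC, here on the opposite strand), searched on both strands.
Fendrr upstream: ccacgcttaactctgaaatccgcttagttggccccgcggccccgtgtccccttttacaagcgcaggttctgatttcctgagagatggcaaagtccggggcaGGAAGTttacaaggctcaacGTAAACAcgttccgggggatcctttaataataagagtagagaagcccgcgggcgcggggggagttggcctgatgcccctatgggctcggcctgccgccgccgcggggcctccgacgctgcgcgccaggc
Of 32851 such windows in the RefSeq table, 19.7% held GGAAGT and 3.17% held TGTTTAC. Both matches describe letters, not binding. The window held none of AGATAA (bound by GATA factors, in 9.99% of windows), GGTGTGA (T-box factors, 3.33%), TAATTG (homeodomains, 7.17%), GGCGCC (Smads, 9.59%) and TATAAA (the TATA box, 12.4%), and its GC content was 62% against a median of 52.4% over all windows. The promoter table matched 3 of the 7 members, namely Fendrr, Msx1 and Msx2. In the Msx1 window (chr5:37824586-37824835, minus strand) none of these letters was found. The Msx2 window held GGAAGT once, on the opposite strand, and none of the others; it is not printed because its RefSeq start lies 294 bases from that of GENCODE.

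The other members are Tbx2 (ENSMUSG00000000093, chromosome 11, 85832551 to 85841948, plus strand), Tbx3 (ENSMUSG00000018604, chromosome 5, 119670669 to 119684724, plus), Tlx2 (ENSMUSG00000068327, chromosome 6, 83068324 to 83070293, minus), Msx1 (ENSMUSG00000048450, chromosome 5, 37820485 to 37824583, minus) and Msx2 (ENSMUSG00000021469, chromosome 13, 53466884 to 53473074, minus). Tbx2 and Tbx3 are paralogues, so their most alike coding stretch bears on whether reads could be shared. Below are 90 coding bases of each in the T-box, from the mm10 genome with the GENCODE annotation, with capitals at the 13 bases that differ (85.6% identical).
Tbx2 (chr11:85833422-85834629, plus strand, across an intron): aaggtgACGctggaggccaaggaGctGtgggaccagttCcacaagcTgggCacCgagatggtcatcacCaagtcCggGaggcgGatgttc
Tbx3 (chr5:119672325-119674035, plus strand, across an intron): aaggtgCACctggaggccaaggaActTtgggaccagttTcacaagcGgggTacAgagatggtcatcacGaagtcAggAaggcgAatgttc
In windows of 50 bases taken along each member's transcript, 97.9 to 100% were found in no other gene. The exons of Tbx3 overlap those of the antisense gene Tbx3os1 in 115 bases, 1.74% of its exon length, and without a stated strand setting reads there cannot be told apart.

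Levels differed widely among the members. Per kilobase of exon, Msx1 and Foxf1 stood highest in the reporter line, at means of 75.2 and 74.0 CPM per kilobase over its 12 libraries. Tbx3 (52.9), Msx2 (45.5), Tbx2 (17.6), Fendrr (5.78) and Tlx2 (1.36 CPM per kilobase) followed. In plain CPM, Tbx3 stood above 97% of the genes tested there, Msx1 above 95% and Foxf1 above 93%, while Tlx2 stood above 25%. In the reporter line Tlx2 thus rests on 21 to 118 counts per library, and Fendrr on 335 to 903.

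**Figure D1:**
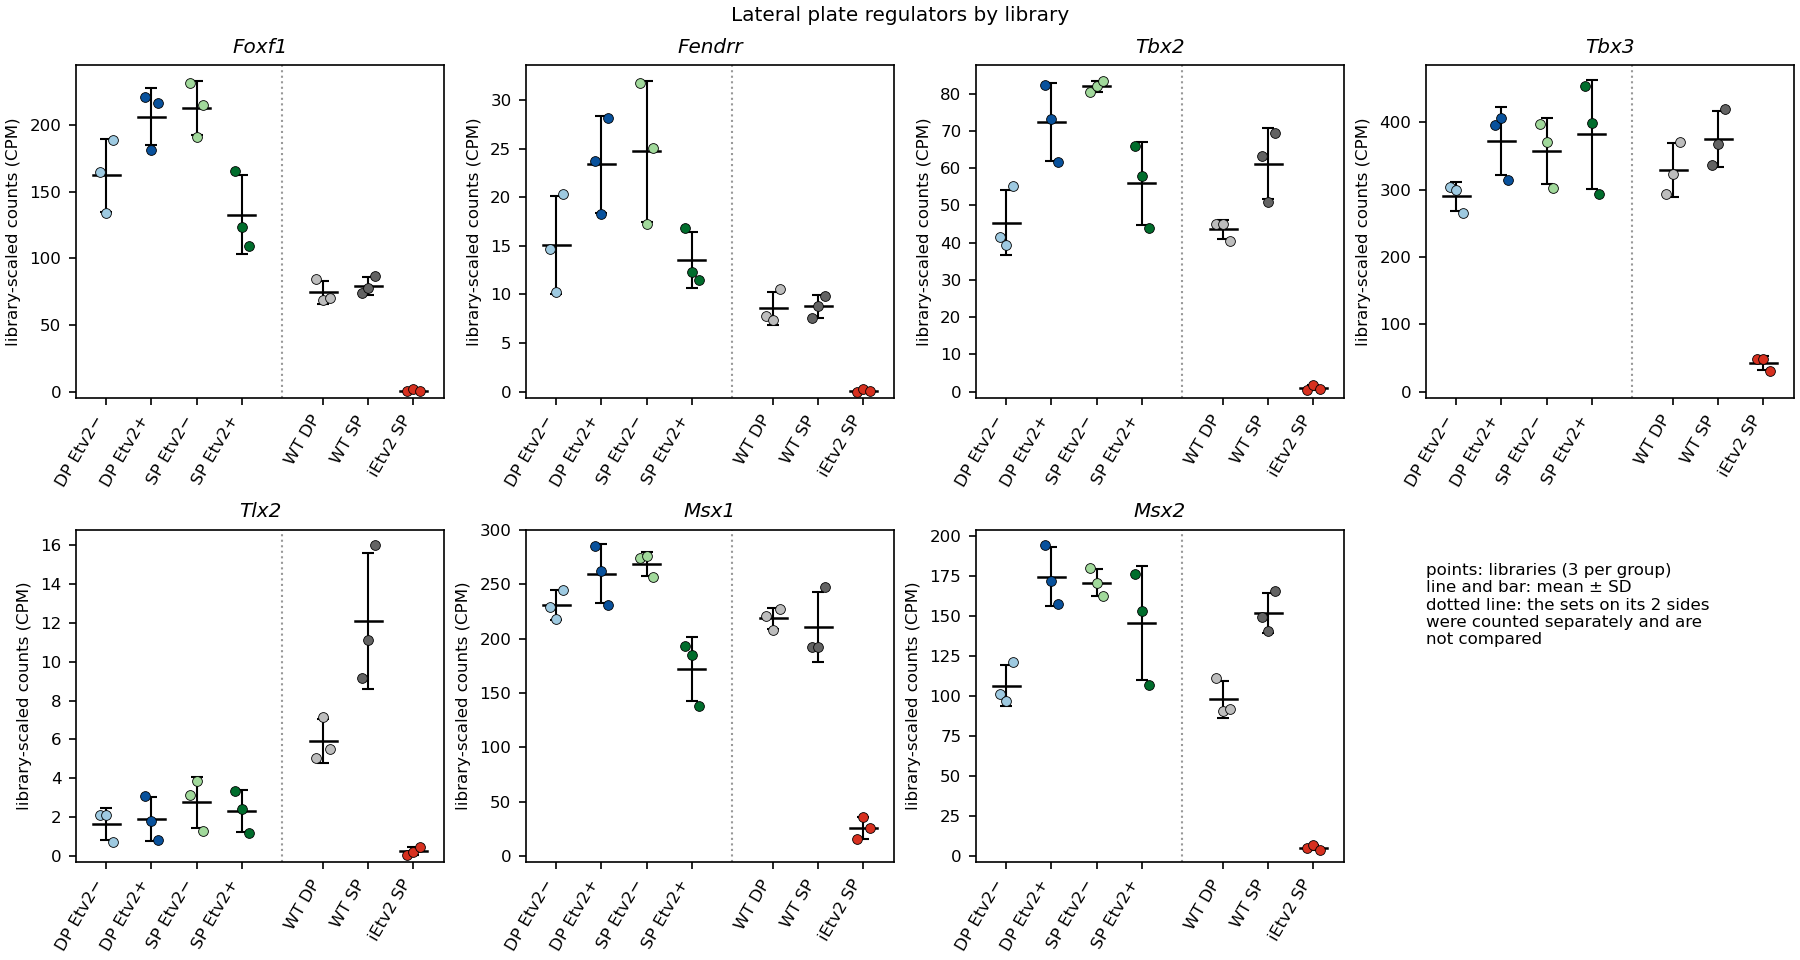
Library-scaled counts (CPM, y axis) of each member in the 7 groups (x axis); points are libraries, lines and bars the mean ± SD of 3, and the dotted line separates sets that are not compared. In the reporter line Foxf1 runs from 109 to 232 CPM, and in iEtv2 SP cells its 3 libraries lie between 0.271 and 1.80 CPM.

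With induced Etv2, all 7 members fell in SP cells, by 8.29-fold (Msx1) to 97.5-fold (Fendrr) relative to WT SP cells. Of the 16288 genes tested, 24.4% were called lower in this comparison and 50.8% in either direction, so a call alone sets no gene apart here. The libraries of all 7 members were apart without overlap, as were those of 59.9% of all genes. The sizes lay in the far tail: 2 to 176 genes had a lower log2 fold change than any given member. The median of the members was -5.62, against 0.00 over all genes. A decrease of at least 4 on the log2 scale was found for 69 genes, 0.424% of those tested, 5 of them members.

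Foxf1 read 73.7, 77.7 and 86.8 CPM in WT SP libraries and 0.271, 1.80 and 0.615 CPM in iEtv2 SP libraries, a log2 fold change of -6.49 ± 0.33 (edgeR, adjusted p = 1.44e-07). Its 3 iEtv2 libraries held 7, 47 and 18 counts, against 1903 to 2066 in WT SP. The groups lie far apart, and replicate 2 is the highest of the iEtv2 libraries. Fendrr read 7.59, 8.84 and 9.88 CPM in WT SP and 0, 0.230 and 0.0341 CPM in iEtv2 SP, which is 0, 6 and 1 counts. The fitted log2 fold change was -6.61 ± 0.44 (adjusted p = 8.61e-07), but its size rests on 7 counts in the whole iEtv2 group. Fendrr was thus close to undetected there, and in both genes replicate 2 was highest and replicate 1 lowest.

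Tbx2 stood at 63.3, 50.8 and 69.6 CPM in WT SP and at 0.503, 1.76 and 0.785 CPM in iEtv2 SP. This made a log2 fold change of -5.93 ± 0.27 (adjusted p = 1.00e-07). Tbx3, its paralogue, fell by less and stayed well detected. It read 336.9, 368 and 419 CPM in WT SP and 48.4, 48.1 and 31.1 CPM in iEtv2 SP, a log2 fold change of -3.16 ± 0.17 (adjusted p = 2.04e-07). The groups did not overlap for either gene.

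Msx1 and Msx2 differed in the same way. Msx1 read 192.4, 192.0 and 247.8 CPM in WT SP and 15.9, 36.0 and 25.4 CPM in iEtv2 SP, a log2 fold change of -3.05 ± 0.23 (adjusted p = 2.13e-06). Msx2 read 149.0, 140.7 and 165 CPM in WT SP and 4.92, 6.77 and 3.72 CPM in iEtv2 SP, a log2 fold change of -4.91 ± 0.18 (adjusted p = 3.56e-08). The 2 genes thus fell to different remaining levels, though no test between members was made. Tlx2 read 9.18, 11.1 and 16.0 CPM in WT SP and 0.0387, 0.230 and 0.444 CPM in iEtv2 SP, with 1, 6 and 13 counts (log2 fold change -5.62 ± 0.41, adjusted p = 1.66e-06). All 7 members stayed called with any 1 library left out, but some sizes rested on 1 library. Without iEtv2 SP replicate 2 the log2 fold changes of Fendrr, Foxf1 and Tbx2 were -8.58, -7.44 and -6.55, and without iEtv2 SP replicate 3 that of Tlx2 was -6.45.

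**Figure D2:**
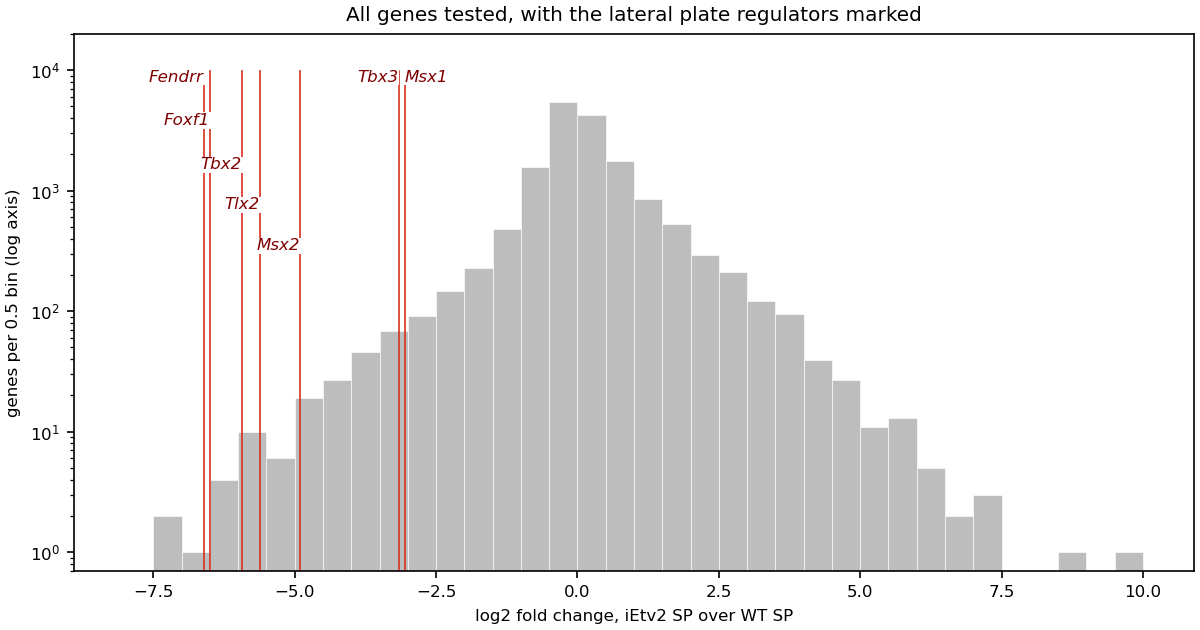
Genes per bin of 0.5 (y axis, log scale) by log2 fold change of iEtv2 SP over WT SP (x axis), for the 16288 genes tested, with red lines at the 7 members. The members lie between -6.61 and -3.05, in the lower tail.

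Other cells' markers moved with this decrease. The summed level of 8 endothelial markers (Pecam1, Cdh5, Tek, Tie1, Esam, Cldn5, Emcn, Erg) ran from 49.5 to 81.5 CPM in WT SP and from 955 to 1417 CPM in iEtv2 SP, and all 8 were called higher. The blood sum ran from 139.8 to 189 and from 333 to 337 CPM, with 3 of 5 tested markers called higher and 2 lower, and the pluripotency sum from 74.1 to 115.9 and from 333 to 388 CPM. In bulk libraries, fewer cells of a type and less RNA per cell cannot be told apart, and the part these shifts have in the result was not tested. Cardiomyocyte markers stood at 23.3 to 30.1 CPM in WT SP and 2.83 to 3.35 in iEtv2 SP, and paraxial mesoderm markers at 39.2 to 60.9 and 15.3 to 22.6 CPM. The fibroblast sum went from 247 to 298 CPM in WT SP to 54.1 to 83.6 CPM in iEtv2 SP, with 2 of 6 tested markers called higher, 2 lower and Lum at 0 in both groups. Neuroectoderm markers summed to 14.5 to 24.7 and 45.3 to 74.8 CPM, and all 4 tested were called higher.

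The decrease was shared by much of the lateral plate list. Of 23 other genes on it, 19 were tested, of which 15 were called lower and 2 higher, with a median log2 fold change of -2.30. Hand2 and Hand1, bHLH factors of lateral mesoderm and heart, fell from 35.9 ± 11.9 to 0.699 ± 0.213 CPM and from 485.9 ± 24.0 to 20.1 ± 11.5 CPM. Tbx20, a T-box factor of the heart and lateral plate, fell from 127.5 ± 5.55 to 5.43 ± 0.956 CPM. Irx3 (1.23) and Wt1 (1.00), named after their values were seen, were the 2 higher. The direction of the list had been seen in these samples before it was drawn up.

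Signalling genes had negative medians closer to 0 than that of the other lateral plate genes. Among 16 BMP ligands, receptors and Smads, 9 were called lower and 3 higher, with a median of -0.69. The ligands Bmp5, Bmp7 and Bmp4 fell most, with Bmp4 going from 211.8 ± 23.6 to 38.8 ± 20.8 CPM. Bmp4 is also one of the lateral plate genes counted above. Of 13 BMP targets and antagonists, 8 were called lower and 2 higher, with a median of -0.93. The largest changes were those of the antagonist Nog (-3.45), Atoh8 (-2.41) and Dlx3 (-2.07). In the Hedgehog list, a pathway upstream of Foxf1 in several organs, 5 of 8 were called lower and 1 higher (median -1.38). Those called lower included Gli1 (-3.29), Hhip (-2.52) and Gli2 (-1.56).

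Both paralogues tested were called lower, and Foxf2 is also one of the lateral plate genes counted above. Foxf2, the paralogue of Foxf1, fell from 0.898 ± 0.359 to 0.466 ± 0.0724 CPM, and Tlx1 from 0.809 ± 0.266 to 0.0114 ± 0.0197 CPM. Both were low throughout, and the iEtv2 SP mean of Tlx1 lay below the level of 3 counts. Of 9 other T-box genes tested, 5 were called lower and none higher by edgeR. Several of them, among them Tbx20 and Tbx4, are also on the lateral plate list. T, the T-box gene of nascent mesoderm, chosen here after its values were seen, was not called (0.40, adjusted p = 0.286). Polycomb and Trithorax subunits, the chromatin complexes that Fendrr has been reported to bind, had a median of -0.11. Of these 10, 4 were called lower, among them Rbbp7 (-0.45) and Ezh2 (-0.39), and 1 higher, Ezh1, from 29.6 ± 0.856 to 75.4 ± 2.93 CPM.

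Genes beside the members did not all follow. Foxc2, a forkhead gene that starts 31785 bases from Foxf1, rose from 3.38 ± 0.415 to 13.8 ± 1.62 CPM (log2 fold change 2.01 ± 0.30, adjusted p = 0.000216) where Foxf1 and Fendrr fell. Near Tbx2, the opposite-strand gene 2610027K06Rik (starts 328 bases apart) fell by 3.64 ± 0.42 on the log2 scale and Tbx4 by 2.11 ± 0.55. Both were low throughout. 2610027K06Rik went from 0.813 ± 0.171 to 0.0627 ± 0.0247 CPM, below the level of 3 counts, and Tbx4 from 1.01 ± 0.512 to 0.240 ± 0.125 CPM. Tbx3os1 fell from 2.25 ± 0.424 to 0.461 ± 0.201 CPM. Near Msx1, Gm20052 fell from 0.512 ± 0.0390 to 0.155 ± 0.104 CPM. Near Msx2, Sptlc1 fell slightly, from 55.0 ± 2.31 to 46.1 ± 1.69 CPM, and Gm2762 was not called. Of 15 tested genes near Tlx2, 9 were called lower and none higher (edgeR). The largest change was that of Gm37092 (-3.95), an unclassified transcript of 0.445 ± 0.185 CPM in WT SP, followed by 1700003E16Rik (-1.59), Mogs (-1.11) and Htra2 (-1.09).

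**Figure D3:**
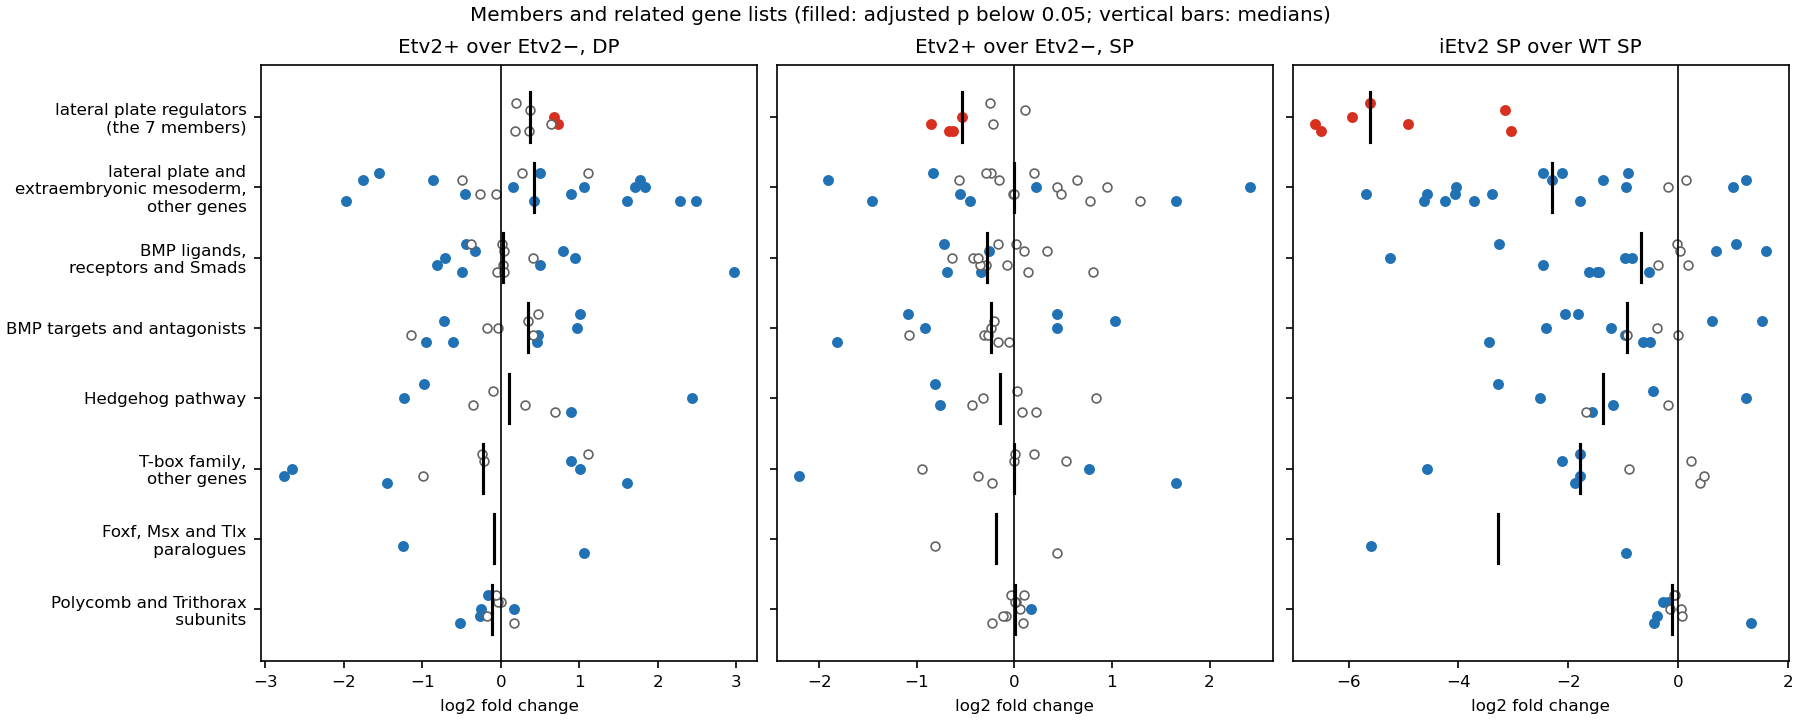
Log2 fold changes (x axis) of the 7 members and of the genes of 7 related lists (y axis) in 3 comparisons; filled points passed the adjusted p of 0.05 and bars are medians. In the panel of iEtv2 SP over WT SP the members lie between -6.61 and -3.05 and the other lateral plate genes have a median of -2.30.

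Within DP cells of the reporter line, all 7 members had higher means in Etv2-positive than in Etv2-negative cells, and Tbx2 and Msx2 passed the test. The share of all genes called was 30.7%, with 16% called higher, so 2 of 7 is near the background in this fit. It did not pair libraries, and a fit that did, given below, called 5 members. Libraries did not overlap for 3 members, against 42% of all genes. Tbx2 read 41.6, 39.3 and 55.3 CPM in Etv2-negative and 82.4, 73.3 and 61.6 CPM in Etv2-positive cells, a log2 fold change of 0.68 ± 0.16 (adjusted p = 0.00486). Msx2 read 101.4, 96.8 and 120.8 and then 194.3, 171.5 and 157.4 CPM (0.72 ± 0.15, adjusted p = 0.00285). In both genes every Etv2-positive library lay above every Etv2-negative library.

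The remaining members were smaller or more scattered in DP cells. Foxf1 read 165.0, 134.0 and 188.5 CPM in Etv2-negative and 221, 181.6 and 216.5 CPM in Etv2-positive cells (0.35 ± 0.15, adjusted p = 0.0952). Fendrr read 14.7, 10.3 and 20.4 and then 23.7, 18.2 and 28.2 CPM (0.64 ± 0.26, adjusted p = 0.0803). Tbx3 read 304, 300.0 and 265 and then 396, 406 and 314 CPM (0.37 ± 0.15, adjusted p = 0.0811). The groups overlapped for Foxf1 and Fendrr and not for Tbx3, and each of these 3 genes was higher in all 3 pairs of same-numbered libraries. Replicate numbers pair the libraries here, and with them as a block Foxf1 (adjusted p = 0.0255), Fendrr (0.0100) and Tbx3 (0.00158) were called too, 5 members in all. The block also raised the count over all genes, from 5435 to 6214, of which 3207 were higher. Without DP Etv2-negative replicate 3, Foxf1 (0.47) and Fendrr (0.92) were called, and without DP Etv2-positive replicate 3, Tbx3 (0.48).

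Msx1 read 229, 218 and 245 CPM in DP Etv2-negative and 285, 263 and 231 CPM in DP Etv2-positive cells (0.18 ± 0.11, adjusted p = 0.259). Tlx2 read 2.13, 2.12 and 0.708 and then 3.09, 1.79 and 0.812 CPM (0.20 ± 0.55, adjusted p = 0.826). Neither separated the groups. In both DP groups replicate 3 was the lowest for Tlx2.

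Other lateral plate genes were called in both directions in DP cells. Of 21 tested, 11 were higher and 5 lower, with a median of 0.42 over the list. Vcam1 rose from 0.131 ± 0.156 to 0.765 ± 0.337 CPM (2.49), so its size rests on very few Etv2-negative counts. Hoxb6 rose from a scattered 3.05 ± 2.76 to 14.8 ± 7.58 CPM (2.28). Osr1, a regulator of intermediate and lateral mesoderm, fell from 2.08 ± 0.753 to 0.527 ± 0.127 CPM (-1.97). Of 16 BMP ligands, receptors and Smads, 4 rose and 5 fell. Gdf6, a BMP ligand, rose from 2.35 ± 0.878 to 18.5 ± 2.62 CPM, the largest change of that list. Of 13 BMP targets and antagonists, 4 were called higher and 3 lower, led by the BMP-induced Smad6 (1.00 ± 0.08) and Id3 (0.97 ± 0.10) and by Nog (-0.95 ± 0.16). The other 2 called lower, named after their values were seen, were Hey1 (-0.72) and Id1 (-0.60), also a BMP target. Paraxial mesoderm markers were at 136.8 to 208.8 CPM in Etv2-negative and 16.1 to 30.3 CPM in Etv2-positive DP cells. The fibroblast sum ran from 112 to 229 and from 445 to 665 CPM, with Lum and Dcn at 0 in every Etv2-negative DP library. The part of these shifts in the members' values was not tested.

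Within SP cells no member was called higher with the reporter. Foxf1, Fendrr, Tbx2 and Msx1 were lower in Etv2-positive than in Etv2-negative cells, and the other 3 members were not called. The share of all genes called was 25.5%, with 12.4% called lower. Libraries did not overlap for these 4 members, against 44.5% of all genes. With upper-quartile scaling, all genes called in SP cells split into 1800 higher and 2653 lower, against 2314 and 2190 with TMM, and the same 4 members were called.

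Foxf1 read 232, 191 and 215 CPM in SP Etv2-negative and 165.8, 123.5 and 109 CPM in SP Etv2-positive cells (-0.67 ± 0.15, adjusted p = 0.00705). Fendrr read 31.8, 17.3 and 25.1 and then 16.9, 12.3 and 11.5 CPM (-0.85 ± 0.26, adjusted p = 0.0299). For both genes the libraries did not overlap, although the lowest Etv2-negative and highest Etv2-positive values of Fendrr nearly met. Tbx2 read 80.5, 82.1 and 83.5 and then 66.1, 57.8 and 43.9 CPM (-0.54 ± 0.15, adjusted p = 0.0214). Msx1 read 274, 276 and 256 and then 193, 184.6 and 138 CPM (-0.63 ± 0.11, adjusted p = 0.00184). Replicate 3, the Etv2-positive library of high ribosomal RNA share, was the lowest of all 12 for Foxf1 and Msx1.

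Left-out libraries changed part of these SP calls. Without SP Etv2-positive replicate 3, Fendrr (-0.74, adjusted p = 0.0994) and Tbx2 (-0.39, adjusted p = 0.0792) were not called, and without SP Etv2-negative replicate 3 neither were Fendrr (-0.85, adjusted p = 0.0684) and Tbx2 (-0.53, adjusted p = 0.0524). Fendrr was also lost without SP Etv2-negative replicate 1 (-0.63, adjusted p = 0.128) or SP Etv2-positive replicate 2 (-0.79, adjusted p = 0.0935). Without both libraries of high ribosomal RNA share, Tbx2 was lost (-0.39, adjusted p = 0.127). Foxf1 and Msx1 stayed called in each of these fits.

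Tbx3, Tlx2 and Msx2 overlapped between the SP groups. Msx2 read 179.6, 170.1 and 162.3 CPM in Etv2-negative and 176, 153 and 106.7 CPM in Etv2-positive cells (-0.22 ± 0.15, adjusted p = 0.309). Tbx3 read 398, 371 and 303 and then 453, 399 and 294 CPM (0.11 ± 0.15, adjusted p = 0.637). Tlx2 ran from 1.27 to 3.86 and from 1.16 to 3.33 CPM (-0.25 ± 0.52, adjusted p = 0.762). Endothelial markers summed to 6.80 to 15.8 CPM in Etv2-negative and 35.8 to 83.5 CPM in Etv2-positive SP cells, and blood markers to 10.7 to 25.4 and 108.9 to 231.6 CPM. Tal1 alone made most of the blood sum, at means of 15.3 and 135.1 CPM, against mean sums of 18.7 and 155.6 CPM. Paraxial mesoderm markers went the other way, from 32.0 to 56.9 down to 8.90 to 12.2 CPM, as did pluripotency markers, from 80.1 to 121 down to 39.1 to 50.1 CPM. Their part in the members' values was not tested.

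Related lists in SP cells were again mixed. Of 21 other lateral plate genes, 3 were higher and 5 lower, led by the cardiac factors Nkx2-5 (2.42) and Tbx5 (1.66) and by Isl1 (-1.91), a factor of the second heart field. Of 16 BMP ligands, receptors and Smads, 4 were lower, among them Bmp7 (-0.72), Smad9 (-0.69) and Acvr2a (-0.34), and none higher by edgeR. Of 13 BMP targets and antagonists, 3 were higher and 3 lower, led by Nog (-1.82), Dlx3 (-1.09) and Id4 (1.03). Of 8 Hedgehog genes, Gli1 (-0.81) and Ptch1 (-0.76), both pathway targets, were lower.

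The Etv2 reporter effect was tested for a difference between the gates, as the SP effect minus the DP effect. All 7 estimates were negative, with a median of -0.94 against -0.01 over all genes, and 5 members were called, against 3.97% of all genes in either direction and 2.45% lower. The members were picked with earlier results of these data known, so this contrast with all genes is a description only. Fendrr had the largest difference (-1.50 ± 0.37, adjusted p = 0.0420), then Tbx2 (-1.22 ± 0.22, 0.0167) and Foxf1 (-1.02 ± 0.21, 0.0275). Msx2 (-0.94 ± 0.21, adjusted p = 0.0337) and Msx1 (-0.81 ± 0.16, 0.0239) followed. Tbx3 (-0.26 ± 0.21, adjusted p = 0.549) and Tlx2 (-0.45 ± 0.76, adjusted p = 0.806) were not called.

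The estimates stayed below 0 for these 5 members, but the calls depended on single libraries. Across the fits that left out 1 library, Tbx2 ran from -1.39 to -1.07, Foxf1 from -1.21 to -0.90, Fendrr from -1.78 to -1.27, Msx1 from -0.90 to -0.67 and Msx2 from -1.10 to -0.76. Calls fell to none without DP Etv2-negative replicate 2, where edgeR called 50 of all genes, not 702, and all 5 members had adjusted p from 0.0558 to 0.106. They fell to 1 without DP Etv2-negative replicate 1 or SP Etv2-negative replicate 1, to 2 without SP Etv2-negative replicate 3 or SP Etv2-positive replicate 2, and to 3 without DP Etv2-positive replicate 1 or 3 or SP Etv2-positive replicate 3. Without both libraries of high ribosomal RNA share, Tbx2 and Msx1 stayed called. Among genes beside Foxf1, Foxc2 had the opposite difference, 3.09 ± 0.31 (adjusted p = 0.00362).

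Called genes of the BMP lists also had negative differences, though not all changed direction between the gates. Of 13 BMP targets and antagonists, 5 had a lower reporter effect in SP cells and none a higher one (edgeR), including Dlx3 (-1.57), Bambi (-0.75) and Smad6 (-0.56). Smad6 was called higher with the reporter in both gates (1.00 in DP and 0.44 in SP cells). Dlx3 was called lower in SP cells (-1.09) and was not called in DP cells. Of the 16 ligands, receptors and Smads, only Gdf6 (-2.17) and Bmp5 (-1.36) were called lower. Of 21 other lateral plate genes, Hand1 alone was called (-0.87 ± 0.21, adjusted p = 0.0371), and the list had a median of -0.50. Among 6 fibroblast markers tested, 2 were also called lower in this difference and none higher (edgeR), and their part in the members' values was not tested.

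**Figure D4:**
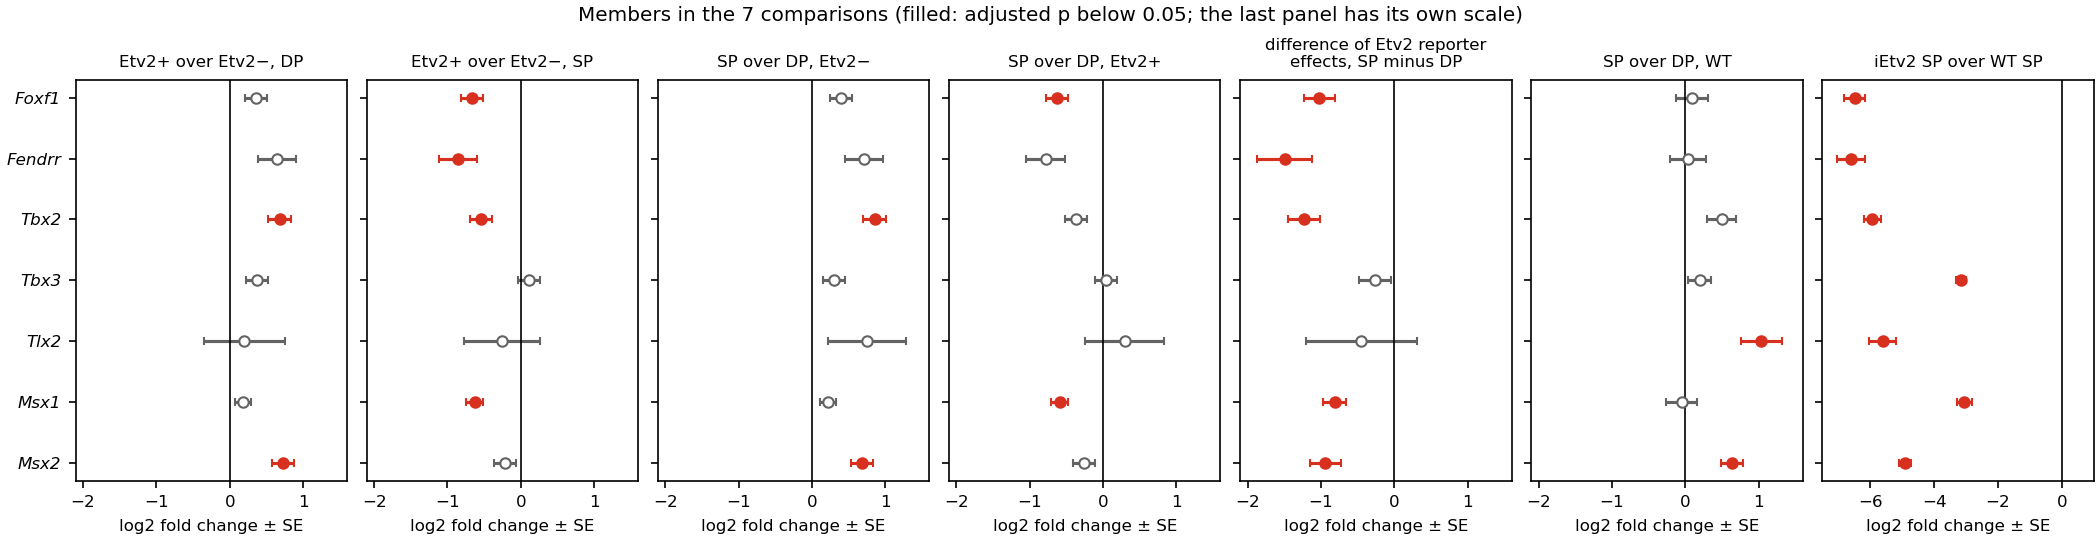
Log2 fold change ± SE (x axis) of each member (y axis) in the 7 comparisons, with filled red points where the adjusted p was below 0.05. The reporter effects are all above 0 in DP cells and mostly below 0 in SP cells, and the last panel, on its own scale, reaches -6.61.

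SP and DP cells were compared within each Etv2 class and in WT. In Etv2-negative cells, Tbx2 (0.85 ± 0.15, adjusted p = 0.00433) and Msx2 (0.68 ± 0.15, adjusted p = 0.0122) were higher in SP cells, against 6.1% of all genes higher and 10.9% called. All 7 estimates were above 0, from 0.22 for Msx1 to 0.85 for Tbx2. Libraries of Foxf1, Tbx2, Msx1 and Msx2 did not overlap, 4 members, against 32% of all genes. Msx2 was not called without DP Etv2-negative replicate 1 (0.63, adjusted p = 0.0591) or replicate 2 (0.62, 0.0626), and Fendrr was called without DP Etv2-negative replicate 3 (0.99) or SP Etv2-negative replicate 2 (0.92).

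In Etv2-positive cells, Foxf1 (-0.63 ± 0.15, adjusted p = 0.0167) and Msx1 (-0.59 ± 0.11, adjusted p = 0.00556) were lower in SP cells, against 6.94% of all genes lower and 13.9% called. Libraries did not overlap for these 2 and Fendrr, against 32.2% of all genes. Foxf1 was not called without SP Etv2-positive replicate 2 (-0.58, adjusted p = 0.0604), replicate 3 (-0.51, 0.0650) or both libraries of high ribosomal RNA share (-0.51, 0.0687). Fendrr (-0.78 ± 0.26, adjusted p = 0.0651) was not called. It was called without DP Etv2-positive replicate 2 (-0.93). These comparisons share their libraries with the reporter effects above and are not independent of them.

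In WT cells, Tlx2 and Msx2 were higher in SP than in DP cells, against 9.08% of all genes higher and 15.8% called. Tlx2 read 5.03, 7.18 and 5.51 CPM in WT DP and 9.18, 11.1 and 16.0 CPM in WT SP (1.04 ± 0.28, adjusted p = 0.0302). Msx2 read 111.2, 90.2 and 92.0 and then 149.0, 140.7 and 165 CPM (0.64 ± 0.15, adjusted p = 0.0135). Both genes and Tbx2 separated the gates without overlap, 3 members, against 32% of all genes. Tlx2 lost its call without WT DP replicate 1 (0.93, adjusted p = 0.0751) or 3 (0.99, 0.0970) or WT SP replicate 2 (1.09, 0.0509) or 3 (0.79, 0.132). Msx2 lost it without WT DP replicate 2 (0.58, adjusted p = 0.0545) or 3 (0.60, 0.0570) or WT SP replicate 3 (0.57, 0.0549).

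The other 5 members were not called between WT gates. Tbx2 read 45.1, 45.1 and 40.5 CPM in WT DP and 63.3, 50.8 and 69.6 CPM in WT SP without overlap (0.49 ± 0.19, adjusted p = 0.112). Foxf1 read 84.4, 68.7 and 70.5 CPM in WT DP (0.10 ± 0.22), Fendrr 7.77, 7.43 and 10.6 CPM (0.04 ± 0.25), Tbx3 293, 323 and 371 CPM (0.19 ± 0.15) and Msx1 221, 208 and 227 CPM (-0.05 ± 0.21). Their WT SP libraries overlapped these values. Among BMP targets and antagonists, 6 of 13 were higher in WT SP and none lower (edgeR), including Id4 (1.02), Smad6 (1.02) and Id3 (0.83). Of 16 BMP ligands, receptors and Smads, 2 were higher, Gdf6 (1.34) and Bmp6 (1.30), and 3 were lower, led by Smad1 (-0.69).

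Cell type markers also differed between the gates. In WT, endothelial markers summed to 4.51 to 8.76 CPM in DP and 49.5 to 81.5 CPM in SP cells, blood markers to 13.1 to 18.7 and 140 to 189 CPM, and paraxial mesoderm markers to 249 to 281 and 39.2 to 60.9 CPM. In Etv2-negative cells the endothelial sum was 2.44 to 5.73 CPM in DP and 6.80 to 15.8 CPM in SP, and the paraxial sum 137 to 209 and 32.0 to 56.9 CPM. In Etv2-positive cells the endothelial sum was 8.49 to 22.5 and 35.8 to 83.5 CPM. Their part in the members' gate differences was not tested.

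The order of the 4 reporter-line groups was the same for Foxf1, Fendrr and Msx1. SP Etv2-positive cells were lowest, then DP Etv2-negative, DP Etv2-positive and SP Etv2-negative cells. For Tbx2, DP Etv2-negative cells were lowest, followed by SP Etv2-positive, DP Etv2-positive and SP Etv2-negative cells, and Msx2 began the same way but had DP Etv2-positive cells highest. Neighbours in these orders overlapped in their libraries, except SP Etv2-positive (172 ± 29.6 CPM) and DP Etv2-negative cells (230.9 ± 13.4) for Msx1. For Tbx3 and Tlx2 every pair of neighbours overlapped. In the second set iEtv2 SP cells were lowest for all 7 members and overlapped with no other group.

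The ratio of Foxf1 to Fendrr counts was compared across libraries. It ran from 7.30 to 13.0 Foxf1 counts per Fendrr count over the 12 reporter-line libraries and from 6.68 to 10.9 over the 6 WT libraries. In the 2 iEtv2 libraries with any Fendrr count it was 7.83 and 18, the latter from a single Fendrr count. The ranges of the 4 reporter-line groups overlapped, from 9.26 to 13.0 in DP Etv2-negative and from 9.51 to 10.1 in SP Etv2-positive cells. Within same-numbered pairs of DP libraries the ratio was lower in Etv2-positive cells in all 3, at 11.2 and 9.33, 13.0 and 9.95, and 9.26 and 7.68, a difference that was not tested. In SP cells it was higher in Etv2-positive libraries for numbers 1 and 3, and lower for number 2.

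**Figure D5:**
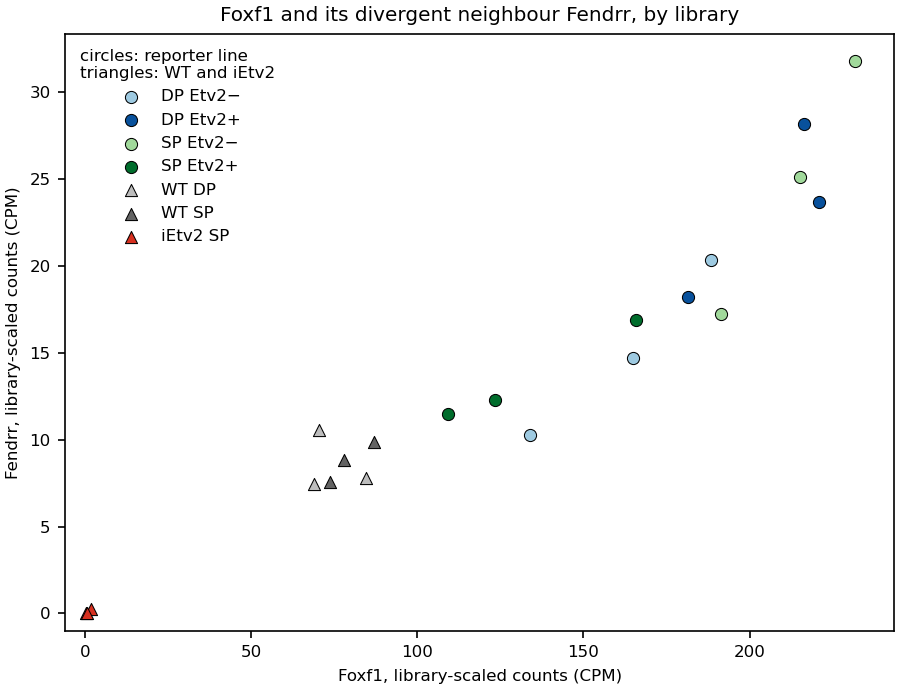
Fendrr (y axis) against Foxf1 (x axis) in library-scaled counts (CPM), 1 point per library, circles for the reporter line and triangles for the second set, which are not compared in level. Fendrr spans 10.3 to 31.8 CPM and Foxf1 109 to 232 CPM in the reporter line, and the iEtv2 libraries lie near the origin.

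Profiles over the 12 reporter-line libraries were compared by the root mean square difference of centred log2 CPM, as a description. Fendrr was nearest to Dlx3 (0.17), Foxf1 (0.22) and Cux2 (0.22), against a median of 0.53 over 11763 genes. Tbx2 was nearest to Serpinb9 (0.12), Msx2 (0.13) and Prickle3 (0.15), and Msx2 to Pmp22 (0.09), Serpinb9 (0.11) and Raet1d (0.12). Foxf1 was nearest to Itgb5 (0.15), Arvcf (0.15) and Nfatc4 (0.16), and Msx1 to Itgb5 (0.12), Eif4e3 (0.13) and Hdac11 (0.13). Tbx3 was nearest to Ttll1 (0.11), Fgd5 (0.11) and Sult4a1 (0.11). For Tlx2 the nearest were Loxl4 (0.43), Optc (0.47) and Bcl3 (0.47), all farther than the genes named for the other members. Over the 9 other libraries, Foxf1 ranked 3 of 11763 for Fendrr (0.39) and Msx2 ranked 9 for Tbx2 (0.63), Pmp22 ranked 48 for Msx2 and Optc 35 for Tlx2, while the other genes named here ranked from 340 to 10665.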

How the data were processed

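Total RNA libraries of 7 groups of 3 were analysed. The authors deposited whole-number counts for each Ensembl gene; the submitters' processing notes name featureCounts and mm10. Versions, aligner, annotation and strand setting are not given in the sources used here, and the 9 files of the second set also list reads outside genes, which were left out. Symbols came from GENCODE M21. Members and gene lists were chosen with earlier results of these data known. Some genes stand on several lists, so the counts of different lists are not independent.

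Each set was fitted on its own with edgeR 4.0.16 in R 4.3.3 (TMM, filterByExpr, quasi-likelihood tests between group terms, two-sided), and p-values were adjusted by Benjamini-Hochberg over all genes tested. At 3 counts, the limit that a count of 0 allows, the level was 0.0908 to 0.135 CPM. These limits cover counting error only. The text names all 7 members and, per list and comparison, up to 3 called genes of largest change; a gene outside this is marked. Likeness is the root mean square difference of centred log2 CPM (prior count 2) over 12 libraries, among genes of at least 1 CPM, and neighbours start within 100 kb of a member.

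Same-numbered libraries count as pairs if all their correlations, after group means are removed, pass 0.1. The reporter comparisons met this in DP (0.175 to 0.342) and SP (0.143 to 0.268). Alternatives varied the scaling (RLE, upper quartile), the filter (none, or 1 CPM in 3 libraries), the tool (DESeq2 1.42.0), the groups fitted, a replicate block, mitochondrial and ribosomal RNA genes, and each library in turn. One more, dropping SP Etv2-negative replicate 2 and SP Etv2-positive replicate 3, was chosen after seeing the data. The code was first tried on simulated counts.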

Additional observations from a re-analysis of the deposited data

Results flagged for a closer look

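For 5 members the effect of the Etv2 reporter differed between the SP and DP gates by a test of the difference itself (edgeR, adjusted p-values in parentheses). The difference was -1.02 for Foxf1 (0.0275), -1.50 for Fendrr (0.0420), -1.22 for Tbx2 (0.0167), -0.81 for Msx1 (0.0239) and -0.94 for Msx2 (0.0337). Each of these 5 genes had a higher mean in Etv2-positive than Etv2-negative cells of the DP gate and a lower one in the SP gate. In the fit without a replicate block, Tbx2 alone was called for the reporter in both gates. Msx2 was called in DP cells only, and Foxf1, Fendrr and Msx1 in SP cells only. Over all genes, 3.97% were called in the test of the difference and 2.45% lower. The members were picked with earlier results of these data known, so these shares are background only. The calls of the difference depended on single libraries, while the 5 estimates stayed negative with any 1 library left out. None of the 5 was called without DP Etv2-negative replicate 2, where edgeR called 50 of all genes, not 702. Only 1 was called without DP Etv2-negative replicate 1 or SP Etv2-negative replicate 1.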

How the results depend on the processing

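Over 756 values of members under alternatives, 656 kept direction and side of the threshold, 48 lost and 34 gained the call, and 18 changed sign. The decrease of all 7 members in iEtv2 SP was called under every alternative. Calls of members, with 1 library left out, ran from 2 to 4 for the reporter in DP, 2 to 4 in SP, 1 to 3 for SP over DP in Etv2-negative and 1 to 3 in Etv2-positive cells, 0 to 5 for the difference of reporter effects and 0 to 2 for the WT gates. Without a filter on low counts they were 5 (reporter in DP), 7 (Etv2-negative gates) and 5 (Etv2-positive gates), while all genes called went from 5435 to 5495, 1936 to 2789 and 2456 to 3128. With a replicate block they were 5 (reporter in DP) and 6 (Etv2-negative gates), and 3 (Etv2-positive gates), where the numbers of the gates did not pair libraries by the rule used. Only replicate 1 missed the 0.1 of that rule. Correlations of replicates 1, 2 and 3 were 0.0962, 0.264 and 0.334 (Etv2-negative gates) and 0.0764, 0.134 and 0.268 (Etv2-positive gates). All genes called with the block came to 6214, 2788 and 3370. The block changed no other count of members. The cause was not tested.

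Without both libraries of high ribosomal RNA share, 1 member was called for the Etv2-positive gates and 2 for the difference. All genes called then came to 2459 (reporter in SP), 1106 (Etv2-positive gates) and 119 (difference). For the difference they came to 1740 without a filter, 1237 with DESeq2 and 1537 with the block, against 702. Fitted on the compared groups alone, 1324 of all genes were called for the Etv2-positive gates, against 2456. With 1 library left out, all genes called ran from 4022 to 5062 (reporter in DP), 3232 to 3608 (in SP), 787 to 2268 (Etv2-negative gates), 1342 to 2403 (Etv2-positive gates), 50 to 1268 (difference), 1509 to 2683 (WT gates) and 6834 to 8058 (iEtv2).

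Sign changes were confined to estimates that were not called. With 1 library left out, Tlx2 ran from -0.35 to 0.58 (reporter in DP), -0.62 to 0.075 (in SP), -0.087 to 0.84 (Etv2-positive gates) and -0.83 to 0.10 (difference), Tbx3 from -0.034 to 0.27 (reporter in SP) and -0.10 to 0.20 (Etv2-positive gates), and in WT Fendrr from -0.065 to 0.21 and Msx1 from -0.18 to 0.0069. Without both libraries of high ribosomal RNA share, Tlx2 was at 0.40 (reporter in SP) and 0.20 (difference). Few Tlx2 counts limit what its reporter-line values can show.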
